A study of Rattus norvegicus with 18 samples.

Results

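Rat lines bred for a high or a low response to endurance training were compared in gastrocnemius, a calf muscle, regardless of whether the rats had been trained. The members were chosen from the labels: the 6 libraries of the high responder line (3 HRT, 3 HRTT) against the 6 of the low responder line (3 LRT, 3 LRTT), which are 12 of the 18 libraries of the series. HRT and LRT rats (high and low response trainers) stayed untrained, and HRTT and LRTT rats ran on a treadmill for 8 weeks. All 12 were males of generation 15, first tested for running capacity at 10 to 12 weeks of age, and the muscle was taken 48 hours after the last running test. Both lines descend from the same outbred N:NIH stock and carry no transgene, so a line is a selected population and not a single genotype, and rats of 1 line can differ in their alleles. The other 6 libraries come from HCR and LCR rats, untrained lines of generation 33 that were bred from the same stock for high and low running capacity. These rats were also males, and the age given for their first running test lies within the same 10 to 12 weeks.

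Endurance training remodels muscle by raising mitochondrial content, capillary supply and slow-type contractile proteins, and the size of this response is partly inherited. A line difference that is present with and without training is one that training did not have to bring about. Muscle also keeps a daily clock, in which transcriptional repressors such as the period proteins feed back on their own E-box enhancers, and it answers to cytokines through STAT factors and interferon response elements.

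The reads of each library were counted on 32882 Ensembl genes, and total counts ranged from 32099533 to 38066798 in the high line and from 25084058 to 41446415 in the low line. Counts were scaled to counts per 1000000 (CPM) with TMM factors of 0.951 to 1.04. Of the 32882 identifiers, 0 could be paired with a gene symbol, so the tissue markers could not be read in the counts, and genes tested in the counts are given by identifier. Named genes come from a second kind of deposited table, which lists called genes by symbol with a level for each group and no spread. Each column heading of the counts carries a number that is not explained there, which was 2 for HRT and LRTT, 3 for HRTT and for LRT replicate 1, and 1 for LRT replicates 2 and 3. HRT and LRT share no number, nor do HRTT and LRTT, so that what it marks and the line cannot be told apart within a training state.

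Few genes were called between the lines. With training as a term in the model, 13 of 13478 tested genes (0.0965%) were called. A call needed a fold change above 1.5 and an adjusted p below 0.05 (quasi-likelihood test of edgeR, Benjamini-Hochberg). Of these, 7 (0.0519%) were higher and 6 (0.0445%) lower in the high line. Without adjustment, 1428 genes (10.6%) had a p below 0.05, of which 734 (5.45%) were higher and 694 (5.15%) lower. The Wald test of DESeq2 called 77, with 36 of them higher, and these included all 13. The libraries fell on opposite sides of the first principal component regardless of line, as described with that component. With the side as a covariate, chosen after seeing the data, edgeR called 22 genes, which included 12 of the 13, and within the 7 libraries of one side it called 3, which included 2 of the 13. With the replicate number as a block, edgeR called 11, which included 7 of the 13. When each library was left out in turn, it called 4 to 14. The median standard error of a line difference was 0.14 on the log2 scale, and the biological coefficient of variation was 23.4%. Nothing in the labels says how replicates were raised, and by the methods each library is a single rat, so p-values measure the spread between these rats only.

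The largest called difference was in ENSRNOG00000021555, which was close to absent from the low line. Its counts were 131, 128 and 159 in HRT and 115, 131 and 105 in HRTT. They were 1, 6 and 3 in LRT and 1, 2 and 6 in LRTT. The lines were thus far apart in both training states, with no library near the boundary. The mean was 3.71 ± 0.554 CPM (SD, n = 6) in the high line and 0.0870 ± 0.0581 CPM (SD, n = 6) in the low line, a log2 fold change of 5.34 (SE 0.30, adjusted p = 1.80e-06 from edgeR). Because most low line counts are at or near the floor of 3 counts, the fitted fold depends on the prior count. The log2 fold change was 5.57 in untrained and 5.08 in trained rats, and it was the only gene called within either state.

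ENSRNOG00000038999 was also higher in the high line. It had 47.5, 52.8 and 74.1 CPM in HRT and 67.4, 78.0 and 99.9 CPM in HRTT, against 13.8, 22.3 and 10.4 CPM in LRT and 25.1, 29.9 and 25.7 CPM in LRTT. The lowest high line library was above the highest low line library, and in each line the highest value came from a trained rat. The log2 fold change was 1.75 (SE 0.18, adjusted p = 0.00198 from edgeR), with 1.91 in untrained and 1.604 in trained rats.

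Of the genes lower in the high line, ENSRNOG00000020669 had the smallest p. It had 1.56, 1.38 and 1.40 CPM in HRT and 1.49, 1.91 and 1.47 CPM in HRTT, against 6.67, 3.81 and 2.85 CPM in LRT and 5.90, 7.89 and 6.96 CPM in LRTT. The high line libraries lay close together, the low line libraries were spread more widely, and the lines did not overlap. The log2 fold change was -1.85 (SE 0.20, adjusted p = 0.00198 from edgeR), with -1.62 in untrained and -2.09 in trained rats.

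ENSRNOG00000005193 had 5.30, 7.54 and 5.83 CPM in HRT and 5.81, 6.14 and 6.80 CPM in HRTT. In the low line it had 16.7, 10.1 and 15.1 CPM in LRT and 11.2, 10.96 and 10.7 CPM in LRTT. The means were 6.24 ± 0.804 CPM (SD, n = 6) in the high and 12.5 ± 2.73 CPM (SD, n = 6) in the low line, a log2 fold change of -0.99 (SE 0.14, adjusted p = 0.0205 from edgeR). The lines did not overlap, and the 3 LRTT libraries lay between the extremes of LRT. Whether any of these 4 genes shares reads with a near-identical copy or an overlapping gene is not known, since strand was ignored and a read was counted for every gene it overlapped.

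**Figure D1:**
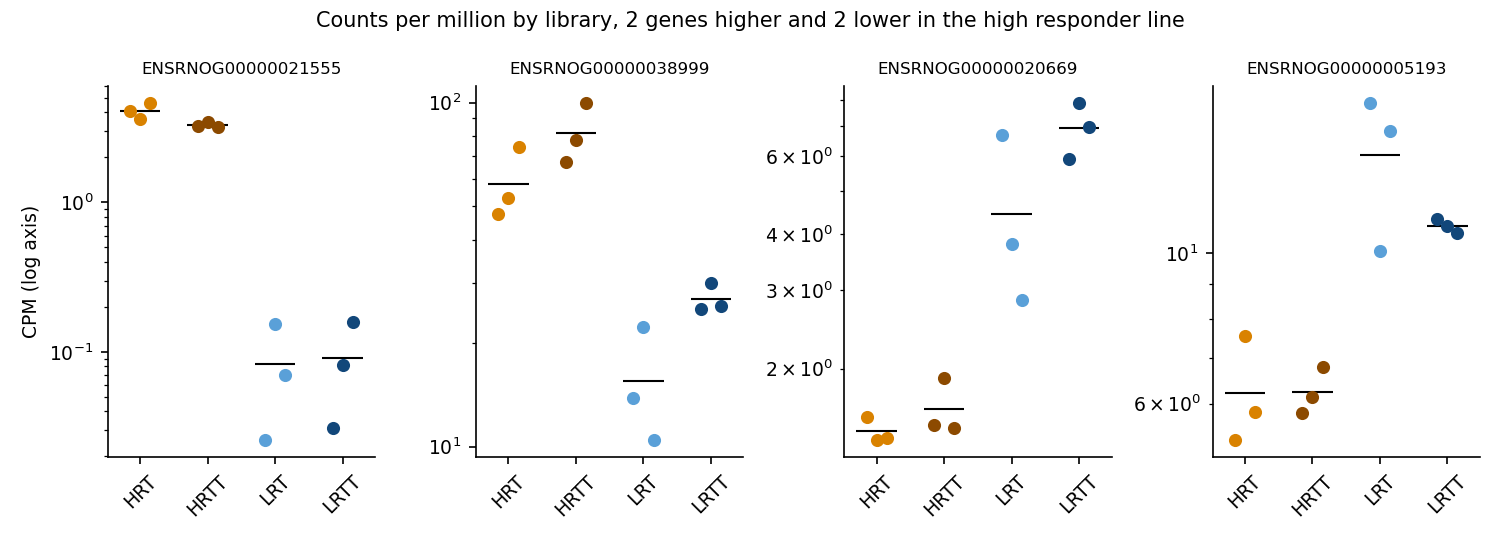
Each panel plots the CPM of 1 gene on a log axis, with 1 point per library, a bar at the group mean and the 4 groups along the horizontal axis. In all 4 genes the 6 high line libraries (HRT, HRTT) lie on one side of the 6 low line libraries (LRT, LRTT), most widely in ENSRNOG00000021555.

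The other 9 called genes, which carry no name in the counts, had adjusted p-values of 0.0305 to 0.0387 from edgeR. With the replicate block, ENSRNOG00000021555, ENSRNOG00000038999, ENSRNOG00000020669 and ENSRNOG00000005193 stayed called and 3 of these 9 did. Of the 9, 5 were higher and 4 lower in the high line, and the fold changes ranged from 0.59 to 3.34 in log2 size. Over all tested genes, the 6 libraries of one line lay entirely above or below the other 6 in 121 genes (0.898%), 66 (0.49%) higher and 55 (0.408%) lower, and 12 of the 13 called genes were among them. The exception was the lower gene with the fourth smallest p. It had 6 to 16 counts in the high line and 100 to 162 counts in 5 low line libraries, but 12 counts in LRT replicate 1, which thus looked like a high line rat for this gene. The higher gene with the fourth smallest p was split only narrowly, with 12 counts in both HRT replicate 1 and LRT replicate 1. After scaling these were 0.374 and 0.309 CPM. When each library was left out in turn, ENSRNOG00000021555, ENSRNOG00000038999 and ENSRNOG00000020669 were called in 12 of 12 fits, ENSRNOG00000005193 in 10 and the other 9 genes in 0 to 5. Just outside the call stood 1 gene with an adjusted p of 0.0335 but a log2 fold change of -0.58, and next a gene with a log2 fold change of -2.75 and an adjusted p of 0.0545, both from edgeR.

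The lines were also compared within the number of the column headings, as far as the libraries allow. Number 2 holds 3 HRT and 3 LRTT libraries, and number 3 holds 3 HRTT libraries and 1 LRT library, so that training differs along with the line in both. The mean log2 CPM (prior count 2) of the high line minus that of the low line was 4.91 within number 2 and 5.35 within number 3 for ENSRNOG00000021555, and 1.09 and 2.54 for ENSRNOG00000038999. It was -2.20 and -2.01 for ENSRNOG00000020669, and -0.83 and -1.41 for ENSRNOG00000005193. These 4 genes kept their direction within both numbers. With the number as a covariate, edgeR called 14 genes, 2 higher and 12 lower, which included these 4 and 7 of the 13 in all.

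How far the line difference held in each training state was read from contrasts of a fit with a term per group. The untrained contrast (HRT against LRT) and the trained contrast (HRTT against LRTT) share no library. Both come from the same fit with a shared estimate of each gene's spread, so their p-values are not independent. Each called 1 gene (0.00742%), which was ENSRNOG00000021555 in both. With only the groups compared in the fit, edgeR called 5 genes in untrained and 6 in trained rats, and DESeq2 called 20 and 33. The difference of the 2 line effects, an interaction, called 0 genes (0%) in edgeR's test, where 502 genes (3.72%) had an unadjusted p under 0.05, and DESeq2's Wald test called 3. Among the 13 called genes the smallest unadjusted interaction p was 0.0986 (adjusted p = 0.947 from edgeR), so that no difference of their line effects between the states was detected with 3 rats a group. All 13 had the same sign in both states, but they were picked on the average over both, so this is a description.

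Genes picked in one state were read in the other. Of 14 genes (0.104%) with an unadjusted p under 0.001 and a fold above 1.5 in untrained rats, 13 had the same sign in trained rats and 10 also had an unadjusted p under 0.05 there. Of 23 genes (0.171%) picked so in trained rats, 19 had the same sign in untrained rats and 12 an unadjusted p under 0.05. At an unadjusted p under 0.01, 116 of 144 genes (1.07%) picked in untrained rats had the same sign in trained rats and 44 also had an unadjusted p under 0.05 there, and of 126 (0.935%) picked in trained rats 99 had the same sign and 41 such a p. Of all tested genes, 58.1% had the same sign in both states. The share with the same sign and an unadjusted p under 0.05 in the other state was not counted over all tested genes. The counts with such a p therefore have no base share and are not read as replication. For the genes picked at 0.001, the median size was 1.52 (log2) in untrained rats, where they were picked, and 0.76 in trained rats, and 1.604 and 0.55 for those picked in trained rats. A smaller size in the other state follows from picking on size, so nothing is read from it. A fold above 1.5 in the same direction in both states was seen in 75 genes (0.556%) higher and 202 genes (1.5%) lower in the high line, and in opposite directions in 84 genes (0.623%).

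**Figure D2:**
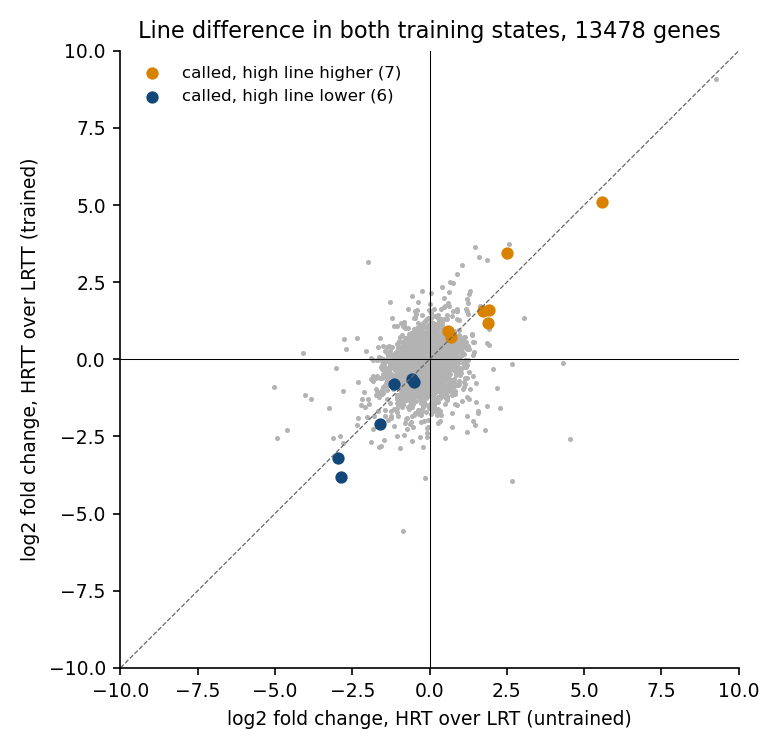
Each point is 1 of the 13478 tested genes, with the log2 fold change of the high over the low line in untrained rats on the horizontal and in trained rats on the vertical axis. The 13 called genes, in colour, lie near the dashed line of equal change. The uncalled point near 9 on both axes is a gene at 0 counts in the 6 low line libraries.

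No separation of the lines was detected in the distances between libraries. Over the 500 genes with the largest variance in log2 CPM, at a prior count of 2, the Euclidean distance between rats of different lines was 44.9 ± 10.9 (SD over 18 pairs) within a training state, and 45.7 ± 11.2 (SD over 12 pairs) between rats of the same line. The difference of -0.75 had an exact one-sided permutation p of 0.48 over 400 assignments of the line labels, where 0.01 is the smallest the design can give. The value depended on the setting, at 0.778 with all genes kept (exact permutation p = 0.34) and 3.42 with the replicate number as a block (exact permutation p = 0.07), so a separation is not excluded. Line took 11.9% of the variance of these genes, training 7.94%, their interaction 5.11% and differences between rats of a group 75.1%, where an even spread over degrees of freedom would give 9.09%, 9.09%, 9.09% and 72.7%. The first principal component, with 50.7% of the variance, mixed the lines. On it the libraries stood apart in a way the labels do not explain, with 7 between -24.4 and -14.9 (4 of the high, 3 of the low line) and 5 between 17.4 and 40.6 (2 of the high, 3 of the low line). The second, with 10.1%, held all high line rats at 4.58 or above and all low line rats at 0.445 or below.

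**Figure D3:**
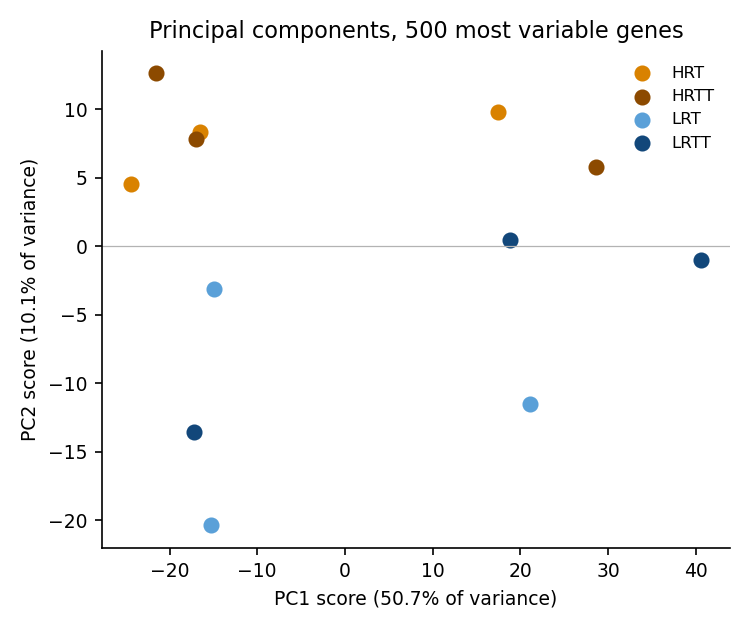
Scores of the 12 libraries on the first and second principal components of the 500 most variable genes, coloured by group. The high line libraries lie above the low line libraries on the vertical axis, and the lines overlap along the horizontal axis, which holds 50.7% of the variance.

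Names can be given for the lines from the authors' level tables. The tables hold only genes that the authors had called, so that the difference of a listed gene is not a result here, and a level has no spread, n or named unit. The table for untrained rats listed 234 names, 64 with a higher and 170 (72.6%) with a lower level in the high line. The table for trained rats listed 253, 66 higher and 187 (73.9%) lower. A list of genes whose listed members were mostly lower therefore had the direction of the tables as a whole. Of the 564 genes in the lists used below, 30 (5.32%) were in the untrained and 45 (7.98%) in the trained table. By name, 59 were in both, which is 25.2% of the untrained and 23.3% of the trained table. Of the 59, 14 were higher in the high line in both states, 39 lower in both, and 6 changed sides. Gene symbols were given for 13, 30 and 6 of these. Ratios were taken within a table, and the genes below were chosen after their levels were seen and are ordered by what they are known to do, with no test of any order or theme.

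Of the 13 genes with higher levels in the high line in both states, Fcar, an Fc receptor for immunoglobulin A, had a level of 19.6 in HRT and 0.0859 in LRT, and 20.7 in HRTT and 0.0886 in LRTT, the largest ratio of the 49 genes with a symbol. The untrained table gives it as Fcar beside a clone name and the trained table as Fcar alone, while the other 58 names in both tables match exactly. Ifi27, an interferon-induced gene, had a level of 204 in HRT against 64.9 in LRT, and 177 in HRTT against 85.0 in LRTT. Irgm, an interferon-inducible GTPase, was at 10.6 against 5.41 in untrained and 9.27 against 5.65 in trained rats. Cish, an inhibitor of cytokine signalling that STAT5 induces, had 13.9 in HRT, 3.84 in LRT, 7.26 in HRTT and 3.59 in LRTT.

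Of a list of 34 interferon genes, Ifi27 alone was in the line tables, in both, and Irgm is not on that list. Kcna10, a voltage-gated potassium channel, had a level of 2.05 in HRT against 0.662 in LRT and of 2.90 in HRTT against 0.279 in LRTT, a ratio of 3.10 that was 10.4 after training. Lgi3, a secreted leucine-rich repeat protein, went from a ratio of 3.70 to one of 8.21. Slc2a13, the proton-coupled myo-inositol transporter, had the opposite order, with a ratio of 7.46 in untrained and 2.13 in trained rats. Shc2 (an adaptor of receptor tyrosine kinases), Gpm6a (a membrane glycoprotein of neurons), Mis18a (needed to load the centromeric histone), Hopx (a homeodomain protein without DNA binding), Phyhd1 (a phytanoyl-CoA dioxygenase relative) and Clybl (a mitochondrial lyase) had ratios of 1.57 to 3.14 in both states. Kcna10 and Lgi3 are among genes that the study named for response in these rats, so they are no independent evidence of direction.

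Of the 30 genes with lower levels in the high line in both states, Per1, a core clock repressor, had a level of 2.24 in HRT against 5.86 in LRT and of 2.07 in HRTT against 3.86 in LRTT. Ciart, a repressor of the clock's activators, had 1.21 against 3.26 in untrained and 0.582 against 2.47 in trained rats. Of a list of 20 clock genes, 2 were in the untrained table, both lower in the high line, and 5 in the trained table, 4 lower and 1 higher, where 73.9% of all names in that table were lower. All 5 are also among the genes that the study named for response in these rats, so they are no independent evidence of direction. The other lower ones were Dbp, a clock-driven activator, at 16.4 in HRTT and 52.4 in LRTT, and Bhlhe40, a repressor, at 39.3 and 75.3. The higher one was Nfil3, the repressor that competes with Dbp for its sites, at 33.1 and 20.5. The time of day of sampling is not given in the sources used here, and its part in these levels was not tested.

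Scd, a stearoyl-CoA desaturase that makes monounsaturated fatty acids, had 0.329 in HRT against 12.5 in LRT, but 0.637 in HRTT against 1.35 in LRTT. Its relative Scd2 had 5.15 against 15.4 and 8.66 against 17.9. Dgat2, which forms triglyceride, had 9.39 against 14.9 and 7.49 against 16.8. Lipg, the endothelial lipase, had ratios of 2.17 in untrained and 3.87 in trained rats, the low line being higher. Of 8 adipocyte markers, 3 were in the untrained table, all lower in the high line (Adipoq at 8.30 against 20.3, Plin1 at 1.29 against 3.10, Lep at 0.50001 against 1.36), and 0 were in the trained table. None of 30 genes for fatty acid use was in either table. The part of fat cells in these lipid levels was not tested, and in bulk muscle fewer cells of a type and less RNA per cell cannot be told apart.

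Cdkn1a, the cell cycle inhibitor p21, had 7.18 in HRT against 24.4 in LRT and 6.26 in HRTT against 14.5 in LRTT. Ankrd1, a titin-binding protein that rises with muscle stress, had 7.09 against 30.1 and 4.89 against 9.66. Mustn1, a musculoskeletal protein, had 99.9 against 185 and 112 against 236. Of 25 genes for atrophy and protein breakdown, 4 were in the untrained table, all lower in the high line (Foxo1, Foxo3, Ddit4 and Cdkn1a), and Cdkn1a alone in the trained table, where 72.6% and 73.9% of all names in these tables were lower. Foxo1 is also among the genes that the study named for response, so it is no independent evidence of direction. Foxo1 and Foxo3, transcription factors that drive muscle protein breakdown, had ratios of 1.95 and 1.65, and Ddit4, an inhibitor of mTORC1, one of 2.20.

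RT1-Db2, a class II beta chain that is on none of the lists, had 0.551 in HRT against 3.19 in LRT and 0.378 in HRTT against 1.38 in LRTT. Of 22 genes of antigen presentation, 3 were in the untrained table, namely RT1-Bb (6.14 against 18.5), RT1-Da (21.1 against 38.3) and Cd74, the invariant chain (44.3 against 83.0). RT1-CE10, a class I gene, was listed for trained rats at 3.93 against 9.36, so that 0 of the 22 were in both tables. The RT1 genes are close relatives that differ between rat haplotypes, so their counting is uncertain. Of 10 macrophage markers 0 were in the untrained and 1, Lyz2, in the trained table (17.2 in HRTT, 28.9 in LRTT).

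Among the remaining lower genes, Atp1a4, a sodium pump subunit known from sperm, had 0.121 in HRT against 1.08 in LRT and 0.104 in HRTT against 1.71 in LRTT. Arrdc2, an alpha-arrestin, had 2.37 against 12.4 and 2.39 against 10.1. Tceal7 had 17.8 against 63.7 and 31.5 against 103. These 3 kept ratios above 3 in both states. Padi2, which turns arginine to citrulline in proteins, had ratios of 2.45 and 3.68, and Slc47a1, an exporter of organic cations, of 2.20 and 5.30. Over the 30 lower genes with a symbol, the median log2 size was 1.39 in untrained and 1.13 in trained rats, with ranges of 0.66 to 5.25 and 0.66 to 4.03.

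**Figure D4:**
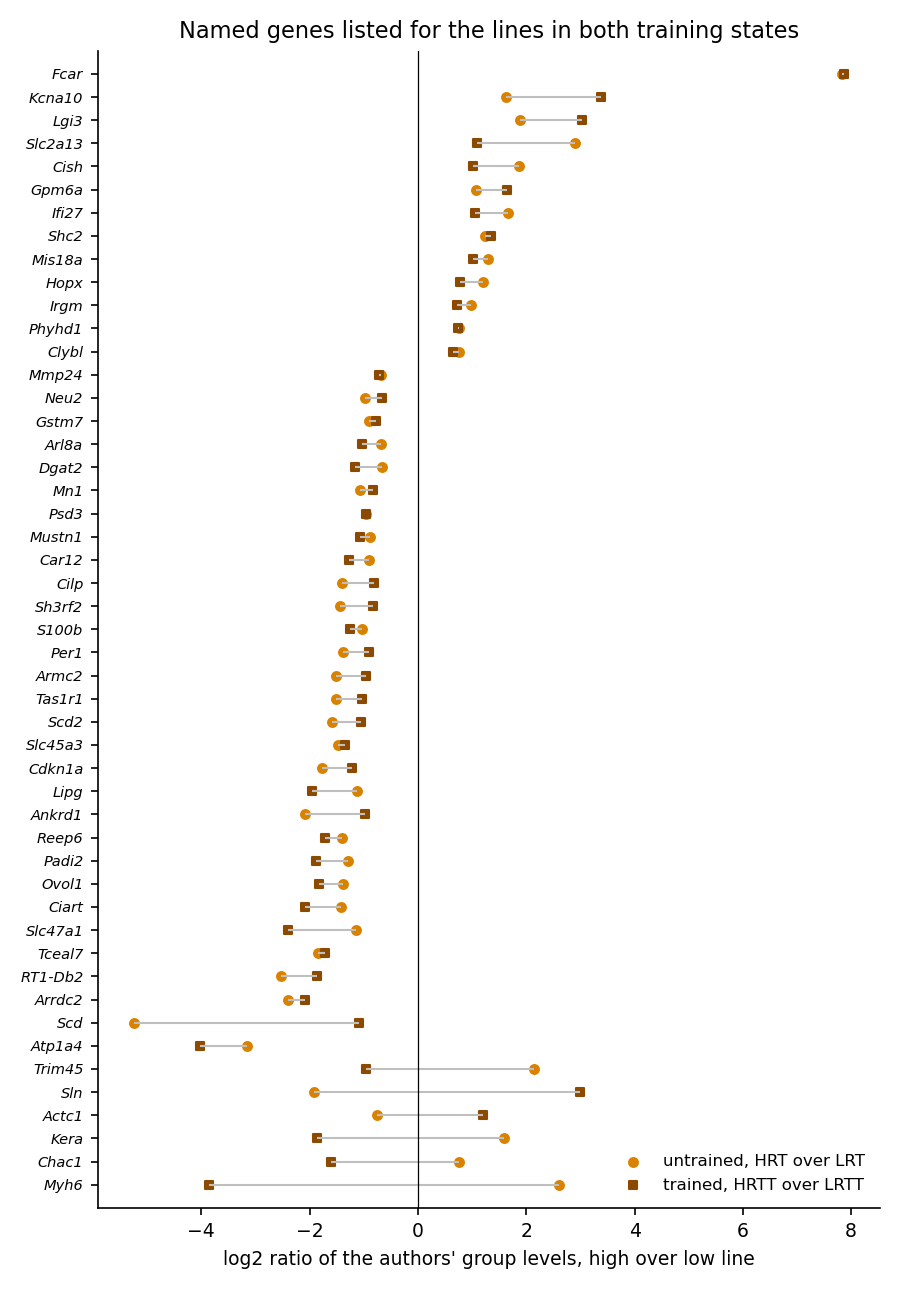
For the 49 genes with a symbol in both line tables, the points give the log2 ratio of the authors' group levels, high over low line, in untrained rats (circles) and trained rats (squares). From the top, 13 genes lie right of 0 in both states, 30 lie left in both, and 6 change sides.

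Of the 6 that changed sides, Sln, sarcolipin, which inhibits the calcium pump of the sarcoplasmic reticulum, had 14.9 in HRT against 56.3 in LRT, but 304 in HRTT against 38.1 in LRTT. Myh6, the alpha cardiac myosin heavy chain, had 1.46 against 0.241 in untrained and 0.332 against 4.79 in trained rats. Actc1, the cardiac actin, had 8.32 against 13.996 and 28.9 against 12.5. These levels have no spread, and the genes could not be picked out in the counts, where the interaction over all tested genes called 0 in edgeR and 3 in DESeq2, so no change of sides is read as a result. Sln and Myh6 are also among the genes that the study named for response. Trim45 and Chac1 had ratios of 4.41 and 1.69 in favour of the high line in untrained rats, and of 1.94 and 3.05 in favour of the low line in trained rats, and Kera, a corneal and tendon keratan sulphate proteoglycan, of 3.00 and 3.62.

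Of 20 slow fibre genes, 7 were in the untrained table, 6 lower in the high line (Casq2, Sln, Myoz2, Csrp3, Tnnt2 and Actc1) and 1 higher (Myh6). In the trained table there were 5, with Sln and Actc1 higher and Myh7b, Myh6 and Ankrd2 lower. Slow troponin T (Tnnt1) was in neither line table. From the authors' tables of the training comparisons, which were normalized separately, it had 89.1 in HRT, 98.1 in LRT, 317 in HRTT and 496 in LRTT. Slow troponin C (Tnnc1) had 65.0, 111, 248 and 407 in the same order, and the slow light chain Myl2 had 42.1, 60.8, 148 and 218. These 3 were chosen after their levels were seen, and since neither line table lists them, no line difference is read from them. Where 2 tables gave a level for the same group and gene, as they did 203 times, the median difference was 1.47% and the largest 2.44%.

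Some lists entered the line tables in 1 state. Of 36 extracellular matrix genes, 0 were in the untrained and 9 in the trained table, all lower in HRTT than in LRTT (73.9% of all names in that table were lower), such as Col1a1, type I collagen (27.3 against 60.2), and Tnc, tenascin C (0.462 against 1.46). Of these 9, 6 are also among the genes that the study named for response. In the same table stood 3 of 7 tenocyte markers, all lower (Tnmd at 1.99 against 6.06). It also held 5 of 10 Schwann cell and nerve markers, all lower (Mbp, a myelin protein, at 3.67 against 12.2). The part of these cell types in the levels was not tested. S100b, a Schwann cell gene, and Cilp, a matrix gene, are on none of the lists. Both were lower in the high line in both states. The ratios in untrained and trained rats were 2.05 and 2.38 for S100b, and 2.63 and 1.76 for Cilp. Entry in 1 state thus holds for the listed genes and not for every related gene. Of 50 nuclear respiratory chain genes, 3 were in the untrained table, all higher in the high line (Ndufa2, Ndufb7 and Cox8b, with ratios of 1.62, 1.55 and 1.59), and 0 in the trained table. Whether these lists differ in their line effect between the states was not tested.

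Of 23 myogenesis genes, 1 was in the untrained table, Igf2, a growth factor, at 33.9 in HRT against 801 in LRT. In the trained table were 3, with Myf5, a satellite cell factor, higher (1.94 against 0.833), and Myog, the differentiation factor, lower (5.06 against 12.3), as was Wnt16 (0.467 against 3.63). Of 32 calcium handling genes, 3 were in the trained table, with Adcy1 higher and the calcineurin regulators Rcan1 (32.0 against 77.2) and Rcan3 (0.570 against 26.6) lower. Of 30 angiogenesis genes, Vwf was lower and Angptl4 higher in HRT, and Apln was lower in HRTT. Of 33 inflammation genes, Tnfrsf12a was higher and Il6r lower in HRT. None of the 15 fast fibre, 13 mitochondrially encoded protein, 24 glycolysis, 31 endurance regulator and 32 oxidative stress genes was in either line table, nor were markers of muscle fibre, erythrocyte, neutrophil, T or B cell and mast cell. Of other marker lists, Col1a1 of 8 for fibroblasts was lower and Cnn1 of 8 for smooth muscle higher (0.761 against 0.288) in HRTT, Myf5 was listed of 5 for satellite cells, and Vwf of 7 for endothelium. Of 25 genes that the study named for response in these rats, a list that is not independent of them, 7 were in the untrained table, 3 higher and 4 lower, and 23 in the trained table, 5 higher and 18 lower. Absence from a table means that the authors did not call the gene or gave it another symbol. It can also come from a repeated name, since 4 rows were left out for that. The 3 highest levels in both tables belonged to names outside the lists, which carry only the identifier of a rat mitochondrial genome record and a number. The highest had a level of 210310 in HRT against 748130 in LRT and of 189620 in HRTT against 1060000 in LRTT. All 3 were lower in the high line, with ratios of 3.35 to 3.56 in untrained and 3.56 to 5.59 in trained rats, and the highest was at 319680 in HCR against 183160 in LCR, the opposite order.

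Upstream sequence was read for Ciart, Cish, Ifi27, Irgm and Per1, chosen after their levels were seen, to show which response elements lie next to them. The 250 bases before the start in RefSeq (GRCr8) were searched on both strands for CACGTG (the E-box), TTCNNNGAA (a STAT site), the core of an interferon response element (GAAA, then any 2 bases, then GAAA), TTATGTAA (a D-box) and TGACGTCA (a cAMP element), motifs chosen after the levels were seen. Of all 33469 windows of this length, 5.59%, 7.67%, 3.41%, 0.828% and 1.59% held them. Of the 43 named genes with the same direction in both states, 36 had a window, and 5, 3, 4, 0 and 0 of them held a match. Below, capitals mark the E-box in Ciart, the STAT site in Cish and the interferon core in Ifi27 and Irgm, each sequence running 5′ to 3′ along the gene. They lie at chr2:186112247-186112496 on the minus strand, chr8:116850719-116850968 on the plus strand, chr6:128355062-128355311 on the plus strand and chr10:33742579-33742828 on the minus strand.
Ciart: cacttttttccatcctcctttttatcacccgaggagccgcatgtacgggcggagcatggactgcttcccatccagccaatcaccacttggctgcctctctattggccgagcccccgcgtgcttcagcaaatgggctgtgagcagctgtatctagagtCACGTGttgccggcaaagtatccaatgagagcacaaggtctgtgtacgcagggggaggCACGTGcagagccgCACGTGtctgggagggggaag
Cish: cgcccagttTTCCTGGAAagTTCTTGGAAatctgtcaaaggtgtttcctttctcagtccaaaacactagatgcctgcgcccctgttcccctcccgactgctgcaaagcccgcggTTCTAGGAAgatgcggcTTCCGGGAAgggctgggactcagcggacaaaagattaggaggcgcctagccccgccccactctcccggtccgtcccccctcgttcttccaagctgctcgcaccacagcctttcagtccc
Ifi27: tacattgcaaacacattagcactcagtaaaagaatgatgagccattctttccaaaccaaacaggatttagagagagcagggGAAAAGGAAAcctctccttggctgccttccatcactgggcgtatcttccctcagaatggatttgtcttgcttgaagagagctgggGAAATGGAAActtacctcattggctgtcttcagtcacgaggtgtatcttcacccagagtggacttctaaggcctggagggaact
Irgm: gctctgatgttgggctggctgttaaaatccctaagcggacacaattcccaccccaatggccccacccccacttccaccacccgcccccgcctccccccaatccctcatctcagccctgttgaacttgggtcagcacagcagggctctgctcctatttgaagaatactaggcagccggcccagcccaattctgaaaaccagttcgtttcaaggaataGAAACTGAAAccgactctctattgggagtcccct
Ciart held 3 E-boxes, the nearest beginning 21 bases before the start, and Cish 4 STAT sites. Ifi27 held 2 interferon cores and Irgm held 1, beginning 34 bases before its start. Irgm also held a STAT site, which is not capitalised and does not overlap the core, and no motif matched in Per1 except the interferon core. A match of letters is a description and not a bound site.

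The HCR and LCR rats gave a readout in other animals, in a count table of its own. Of the 13 called genes, 12 were tested there and 6 had the same sign in HCR against LCR as in the high against the low responder line. One was called there, ENSRNOG00000021555, with 77, 56 and 98 counts in HCR and 2, 1 and 6 in LCR, a log2 fold change of 4.60 (adjusted p = 0.0460 from edgeR). DESeq2 also called 1 of the 12, but with the replicate block 0 were called, as in each of the 6 fits that left out 1 library. There, 4 of 13138 genes (0.0304%) were called, and HCR and LCR did not overlap in 12.3% of genes. With 3 libraries on each side a lack of overlap arises readily by chance, so it is not read as a result. ENSRNOG00000020669 had the opposite order, with 6.46, 6.44 and 6.51 CPM in HCR and 4.67, 3.93 and 2.51 CPM in LCR, a log2 fold change of 0.81 (adjusted p = 0.630 from edgeR). ENSRNOG00000038999 ranged from 24.3 to 150 CPM in HCR and from 37.9 to 141 CPM in LCR, overlapping widely.

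Of the 53 names with the same direction in both responder tables, 15 were also in the authors' table of HCR against LCR, and 9 of these had the same direction there. The HCR against LCR table held 432 names. How many of them were higher or lower in HCR was not counted, nor was a base share for the overlap. The 15 and the 9 are therefore a description and are not read as replication. Tceal7 had 43.5 in HCR against 144 in LCR, Cdkn1a 11.03 against 33.8, Ankrd1 8.04 against 31.3 and Mustn1 116 against 269, all lower in the line bred for more running, as in the high responders. Slc2a13 was higher in HCR (3.97 against 0.999). Cish had the opposite order, at 5.09 in HCR against 12.04 in LCR, as did Arrdc2 (16.8 against 6.28), Reep6 (15.4 against 3.51) and S100b (4.37 against 2.12). Fcar, Per1, Ciart and Ifi27 were not in that table.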

How the data were processed

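Gastrocnemius RNA was sequenced from single rats, 1 library each, and groups and replicate numbers were taken from the labels. The deposited counts are raw whole-number read counts per Ensembl gene; the headers give featureCounts 1.6.4, the Ensembl 91 annotation of Rnor_6.0, strand ignored, and reads counted for every gene they overlapped. The methods name TopHat2 (2.1.1 in the submitters' processing notes) for alignment, while the headers name files in the form that STAR writes. The authors' tables of called genes hold a group level in another, unnamed unit that the authors computed with Cuffdiff, plus fold changes, p-values and q-values that were not used. Rows with a repeated name (4) were left out.

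The tools were R 4.3.3, edgeR 4.0.16 (filterByExpr with a count minimum of 10, TMM, quasi-likelihood test with robust estimation, Benjamini-Hochberg adjustment over 13478 genes), DESeq2 1.42.0 and limma 3.58.1. The line test had training and line as terms. HCR and LCR were fitted alone. The depth limits low genes, and intervals and SEs cover only the spread between these libraries. The model was tested on simulated data. Chi-square values per gene lay between 16.6 and 281 over the 12 replicate pairs, and none was taken for a library deposited again. The members and the gene lists (31 lists, 564 genes) were chosen with earlier results of these data known. The rule was to name every called gene, with at most 2 identifiers in each direction where no name exists. Its further parts, on named genes with the next smallest p and on list members in the counts, could not be applied, since 0 of 32882 identifiers matched a symbol. List genes were therefore read in the authors' tables. Alternatives were RLE scaling, DESeq2, other filters and thresholds, other model terms, the replicate number as a block and each library left out. DESeq2 for the contrasts within a training state, and the side of the first principal component as a covariate or as a subset, were added after seeing the data.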

Additional observations from a re-analysis of the deposited data

Results flagged for a closer look

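Among the 13 called genes, the 6 libraries of each line were searched for a library whose gap to its nearest neighbour was large against the range of the group (Dixon's ratio on log2 CPM), in 26 groups, and 3 were past the limit that chance passes in about 1 in 20 groups. For the lower gene with the fourth smallest p, LRT replicate 1 stood apart from the other low line rats with a ratio of 0.906, with 12 counts against 100 to 162. For the lower gene with the third smallest p, LRT replicate 1 stood above the rest of the low line with a ratio of 0.645, at 48.8 CPM against 38.2 to 41.7 CPM. For ENSRNOG00000020669, HRTT replicate 2 stood above the rest of the high line with a ratio of 0.627, at 1.91 CPM against 1.38 to 1.56 CPM, and it was still below every low line library.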

How the results depend on the processing

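With RLE scaling, no robust estimation, no training term, no fold threshold, a term per group or a filter of 10 counts in every library, the number of genes called between the lines was 9 to 14. DESeq2 called 77, no filter beyond 1 count gave 20 (9 higher, 11 lower), an adjusted p under 0.10 gave 29 (12 higher, 17 lower), and glmTreat, which tests against the fold itself, 3 (2 higher, 1 lower). Added after seeing the data, the side of the first principal component as a covariate gave 22 (9 higher, 13 lower), and the 7 libraries of its negative side alone gave 3 (2 higher, 1 lower), where ENSRNOG00000020669 and ENSRNOG00000005193 were not called (adjusted p = 0.0800 and 0.0810 from edgeR) although their log2 fold changes were -1.87 and -1.03, as large as with all 12 libraries. Leaving out 1 library gave 4 to 14, with 4 without HRT replicate 3 or LRT replicate 3, 5 without LRTT replicate 2, 6 without HRT replicate 2 or LRT replicate 2, and 7 without HRTT replicate 2, HRTT replicate 3 or LRTT replicate 3. ENSRNOG00000005193 was no longer called without HRT replicate 3 (adjusted p = 0.0834 from edgeR) or LRT replicate 3 (adjusted p = 0.0598), and its log2 fold change stayed at -0.94. With only the groups compared in the fit, 5 genes were called in untrained and 6 in trained rats. DESeq2 called 20 and 33 there, and 3 for the interaction, all 3 lower. Leaving out 1 library gave 1 to 4 in untrained rats (most without LRT replicate 1 or 2), 1 to 5 in trained rats (most without LRT replicate 1 or LRTT replicate 3) and 0 to 1 for the interaction (1 without HRTT replicate 1). The separation of the lines was 0.778 with all genes kept (exact permutation p = 0.34). It ranged from -3.72 to 3.03 with 1 library left out, turning positive without HRT replicate 1 (0.0485), HRTT replicate 1 (1.70) or LRTT replicate 3 (3.03). In HCR against LCR, 6 to 9 of the called genes kept the sign with 1 library left out, and 0 were called there in those fits or with the replicate block.

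The groups share replicate numbers, but of 12 correlations of same-numbered deviations between the lines 6 were over 0.1 (range -0.416 to 0.505): 0 of 3 for HRT with LRT, 2 for HRTT with LRTT, 3 for HRT with LRTT and 1 for HRTT with LRT. HRT with HRTT had 3 of 3 over 0.1 and LRT with LRTT 1. Since not every pair between the lines passed, the numbers were not taken as pairing the rats. With the replicate block, 11 genes were called, 5 higher and 6 lower, 7 of them shared with the 13, and 1, 1 and 0 in the untrained, trained and interaction tests. The separation was 3.42 with the block (exact permutation p = 0.07). Depth limits genes near 3 counts, where a fold depends on the prior count.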

Other observations

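For the lower gene with the fourth smallest p, counts fell into a low and a high range in the HCR and LCR rats too, without following the line. It had 15, 151 and 147 counts in HCR and 11, 108 and 10 in LCR. Over these and the 12 responder libraries, every count was between 6 and 16 or between 100 and 162.

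A search for genes with at most 3 counts in every library of one line and at least 20 counts in 5 or more libraries of the other found 1 gene, chosen after its values were seen. It was at 0 counts in all 6 low line libraries. In the high line it had 67, 68 and 85 counts in HRT and 67, 144 and 0 in HRTT, so 1 trained high line rat also lacked it. The test did not call it (adjusted p = 0.252 from edgeR). In the other table it had 1, 3 and 108 counts in HCR and 223, 206 and 228 in LCR.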
